A study of Mus musculus with 6 samples.

Results

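Complement is a protein cascade of innate immunity. Its classical and lectin arms start from the proteases C1r, C1s and the MASPs, which cleave C4 and C2, and its alternative arm uses factor B; all arms meet at C3, whose cleavage tags surfaces and leads to the membrane attack complex. Host cells hold the cascade back with membrane regulators such as CD55 and CD59 and with the secreted C1 inhibitor. Liver makes most of the plasma proteins, but epithelial and tumour cells can make several of these components themselves, and C1r, C2, C4, factor B and C1 inhibitor are known as interferon-responsive genes in human and mouse cells.

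The complement genes examined here were C1ra, C2, C3, C4b, Cfb, Cd55, Cd59a and Serping1. Their probe sets were found by gene symbol in GEO's platform annotation, as every probe set whose symbol is or includes one of the 8 names. This gave 14 probe sets of 45037 that are not array controls, for 7 of the 8 genes. No probe set carried the symbol C3 in that annotation, so C3 was not analysed here. Of the 14 probe sets, 11 had 1 gene symbol and 3 had several: the probe set for C4b is shared with C4a, 1 of C1ra is shared with C1rb, and 1 of Cd55 is shared with Cd55b, so the signals of these paralogs could not be told apart there.

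Total RNA of iKAP cells was measured on 6 biotin-labelled arrays, 3 labelled IRF2 and 3 labelled GFP control. iKAP is a genetically engineered mouse model of colorectal cancer, and both groups are labelled as the same primary cultured cells, so they share the alleles of that model. Per the labels, the first group stably expressed the IRF2 open reading frame and the second GFP, each from a lentiviral construct, in DMEM with 5% of a tetracycline-free additive. The labels do not tell whether arrays of 1 group are separate cultures, and the tests therefore use a spread between arrays that may be only technical.

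The values are linear probe set intensities in arbitrary units, and the medians of the 6 arrays lay between 18.1 and 18.7. The 3 tryptophan control probe sets, which no mouse transcript should fill, read 3.69 to 6.52 and serve as a guide to background. The probe set of Irf2 read 37.0, 36.6 and 35.2 on the arrays labelled IRF2, against 65.4, 60.5 and 62.0 on the GFP control arrays, which goes against the label, so the group is called "labelled IRF2" throughout. Whether this probe set can report RNA made from the lentiviral open reading frame could not be settled from the labels, nor could an exchange of the group labels. Were the labels exchanged, every direction below would turn, and C1ra would be at 0.407-fold. Epithelial keratin genes were bright, with Krt8 at 4999 ± 114 and 3533 ± 32.7 (mean ± SD, n = 3 each) on the arrays labelled IRF2 and the GFP control arrays. Of other intestinal epithelial markers, means in the same order were 188 and 279 for Cdh17 and 127 and 214 for Cdh1. They were 86.0 and 93.5 for Cdx2 and 27.8 and 48.2 for Epcam. The villin gene Vil1, at 5.83 ± 0.457 and 6.73 ± 0.406, and the differentiation keratin gene Krt20, at 6.65 ± 0.326 and 7.24 ± 1.31, were at or close to the background level, and so was the pan-leukocyte gene Ptprc, at 4.96 ± 0.522 and 4.48 ± 0.21 (mean ± SD, n = 3 each). Other immune cell markers read higher in both groups, with means of 77.95 and 77.6 for Cd68, 31.6 and 32.1 for Csf1r and 21.8 and 21.4 for Cd3e. The 4 others with a probe set, Ptprc among them, were dimmer. The 3'/5' ratio of the transferrin receptor control, a sign of RNA quality, was 3.81 to 4.47 on the arrays labelled IRF2 and 3.61 to 3.78 on the GFP control arrays, and its part in the results was not tested.

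C1ra, a protease gene that opens the classical arm, showed the largest rise among the complement probe sets, 2.46-fold. C2, the protease gene next in the classical and lectin arms, rose in each of its 3 probe sets, by 1.22-fold to 1.61-fold. Cd55, whose membrane protein dismantles the enzyme complexes that C2 and factor B form, fell in both of its brighter probe sets, by 0.28 and 0.37 on the log2 scale. The probe set shared by C4a and C4b did not pass the test, and those of Cfb and Serping1 lay below the level at which probe sets were tested. Each change is the log2 fold change of the arrays labelled IRF2 over the GFP control arrays with its standard error (SE), from limma across the 27022 probe sets whose mean over all 6 arrays was above the 40th percentile, an intensity of 11.3. A call is an adjusted p under 0.05 over all of them (Benjamini-Hochberg, two-sided).

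Of the 14 complement probe sets, 9 were above that level and 5 below it. Of the 9, 5 were called higher, where 13.0% of all probe sets tested were called higher, and 2 were called lower, where 15.7% of all were. In 6 of the 9 no array of one group lay within the range of the other, which held for 40.5% of all probe sets tested. The count of 5 gives C2 3 of its places, and C1ra passed the filter only through the arrays labelled IRF2, so the count is a description of these probe sets. The median change over all probe sets tested was -0.0011 and the median size of a change was 0.09 on the log2 scale.

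**Figure D1:**
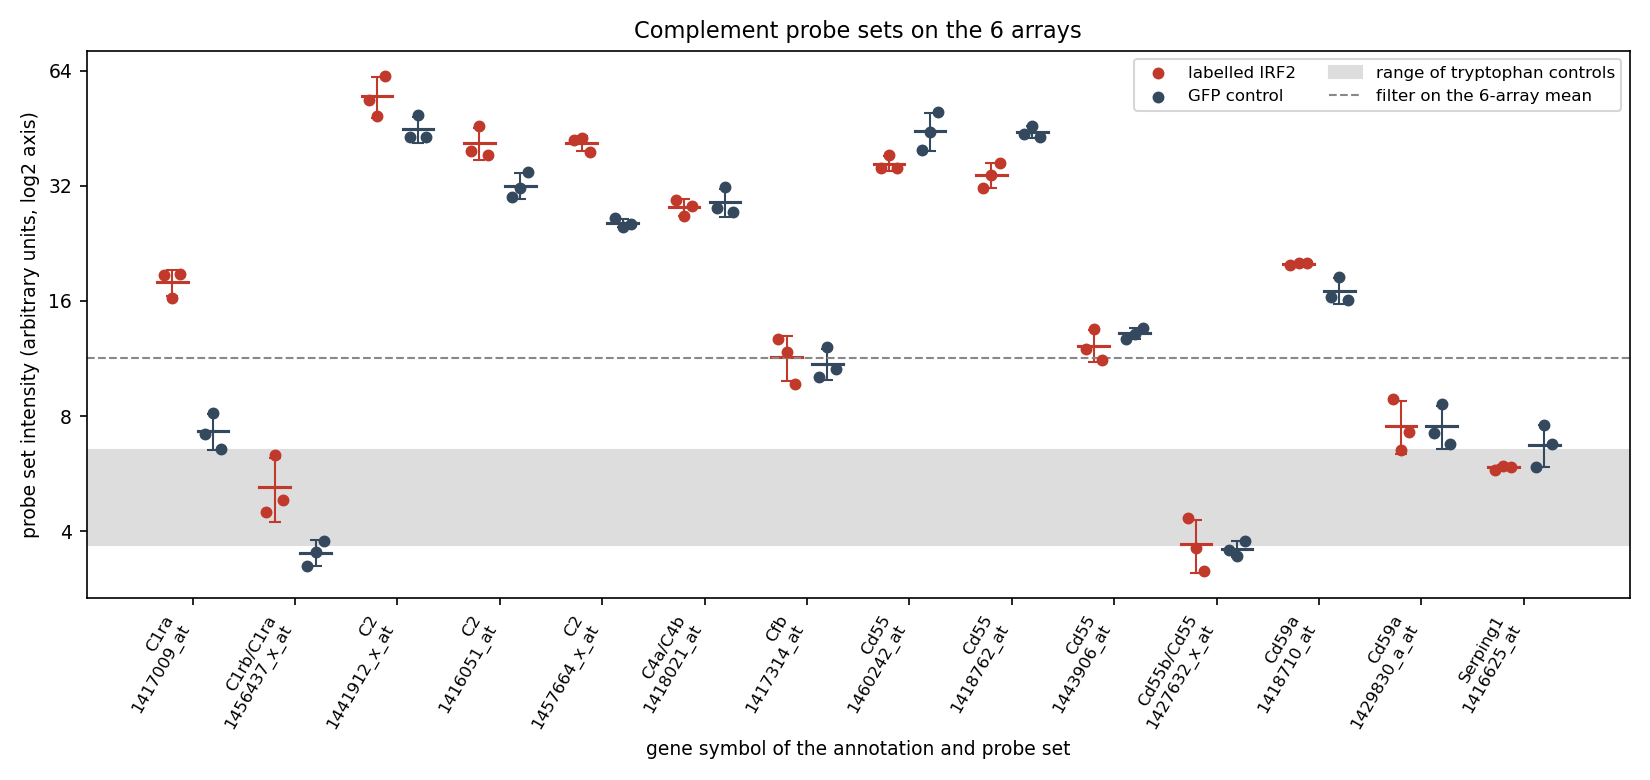
Intensity (arbitrary units, log2 axis) of the 14 complement probe sets on the 6 arrays, with each array as a point, the group mean as a line and the SD as error bars (n = 3 arrays each). The C1ra points labelled IRF2 (16.3 to 18.8) stand clear of the GFP control points (6.58 to 8.15), which lie just above the range of the tryptophan controls (grey band, 3.69 to 6.52).

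C1ra encodes the mouse form of C1r, the protease that C1q activates and that in turn activates C1s. Its own probe set, 1417009_at, read 18.7, 16.3 and 18.8 on the arrays labelled IRF2, against 7.19, 8.15 and 6.58 on the GFP control arrays. All 3 arrays labelled IRF2 were thus above all 3 GFP control arrays, and the lowest GFP control array was at the level of the brightest tryptophan control reading. The log2 fold change was 1.30 (SE 0.10, limma adjusted p = 6.20e-07), and 0.174% of all probe sets tested had a rise of that size or more. C1ra was among those tested only through the arrays labelled IRF2, so this share is a description and no test of the rise. Because the control level is so close to background, the size rests on the treatment of low values, and adding 16 to each intensity before the log made it 0.54 (adjusted p = 9.20e-07). The mean over 6 arrays, 11.4, was just above the filter, and in the fit of every probe set without a filter the adjusted p was 8.68e-07.

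The probe set shared by C1ra and C1rb, 1456437_x_at, was dimmer still, at 4.48, 6.35 and 4.82 on the arrays labelled IRF2, against 3.24, 3.52 and 3.78 on the GFP control arrays. These groups did not overlap either, but every value was within or below the tryptophan range, and it was below the filter. Its difference was 0.56 on the log2 scale, with an adjusted p of 0.00354 in the limma fit without the filter. C1rb is a paralog that lies 2 places from C1ra on chromosome 6.

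The partners that C1r works with were measured in the same arrays. The gene of C1s, C1s1, read 5.03 ± 0.348 on the arrays labelled IRF2 and 4.96 ± 0.397 on the GFP control arrays (mean ± SD, n = 3 each), both inside the tryptophan range. The 3 chains of the recognition protein C1q, C1qa, C1qb and C1qc, averaged 7.95, 4.58 and 6.46 on the arrays labelled IRF2 and 8.03, 4.72 and 6.61 on the GFP control arrays, and none passed the filter. C1qa is also a macrophage marker, and the 7 immune cell markers with a probe set summed to 149 to 165 on the arrays of both groups, with none of the 3 above the filter called.

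C2 encodes the protease that joins C4b to form the classical C3 convertase. Its probe set 1457664_x_at read 42.1, 42.6 and 39.3 on the arrays labelled IRF2, against 26.3, 25.0 and 25.5 on the GFP control arrays. The groups lay far apart in relation to their spread, and the probe set rose by 0.69 (SE 0.07, limma adjusted p = 7.53e-06). The probe set 1416051_at read 39.6, 45.8 and 38.5 on the arrays labelled IRF2, against 29.9, 31.5 and 34.7 on the GFP control arrays. These groups did not overlap, and the change was 0.36 (SE 0.09, adjusted p = 0.00547). The brightest, 1441912_x_at, read 53.7, 48.8 and 62.1 on the arrays labelled IRF2, against 43.0, 49.0 and 42.9 on the GFP control arrays. Its groups overlapped by 1 array each, with a change of 0.28 (SE 0.09, adjusted p = 0.0281).

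That last call was lost without the replicate 1 (adjusted p = 0.0623) or replicate 3 (0.132) array labelled IRF2, without the replicate 1 (0.0806) or replicate 3 (0.103) GFP control array, and without the intensity trend (0.0855). Averaged over the 3 probe sets, C2 rose by 0.45 (limma adjusted p = 2.94e-05). The array maker's suffix _x marks probe sets with probes that can match other sequences, and it is carried by both the probe set with the largest change and the brightest one. The change of 1457664_x_at was larger than that of 1441912_x_at by 0.41 and than that of 1416051_at by 0.33 on the log2 scale, and neither difference passed the test (exact permutation p = 0.1 for each, two-sided; adjusted p = 0.3 over 6 pairs of probe sets within C2 and Cd55). With 3 against 3 arrays 0.1 is the smallest p possible, so this test could call no pair.

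C4b encodes mouse C4, the thioester protein that C1s cleaves, and C4a is the nearby gene known in mouse as the sex-limited protein. Their shared probe set 1418021_at read 29.4, 26.6 and 28.4 on the arrays labelled IRF2, against 27.9, 31.7 and 27.3 on the GFP control arrays. The groups overlapped, and the change of -0.04 (SE 0.08, limma adjusted p = 0.775) had a 95% interval from -0.22 to 0.14, so a rise of the size seen in C1ra or in 1457664_x_at of C2 lies outside it. Its sign turned without the replicate 2 GFP control array (0.026).

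Cfb encodes factor B, the alternative arm's counterpart and paralog of C2, and the genes are direct neighbours. Its probe set 1417314_at read 12.7, 11.8 and 9.71 on the arrays labelled IRF2, against 10.1, 12.1 and 10.7 on the GFP control arrays. The groups overlapped and their 6-array mean of 11.1 was just below the filter, so it was not tested there; the difference was 0.05 on the log2 scale, and without the filter its adjusted p was 0.856 (limma).

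**Figure D2:**
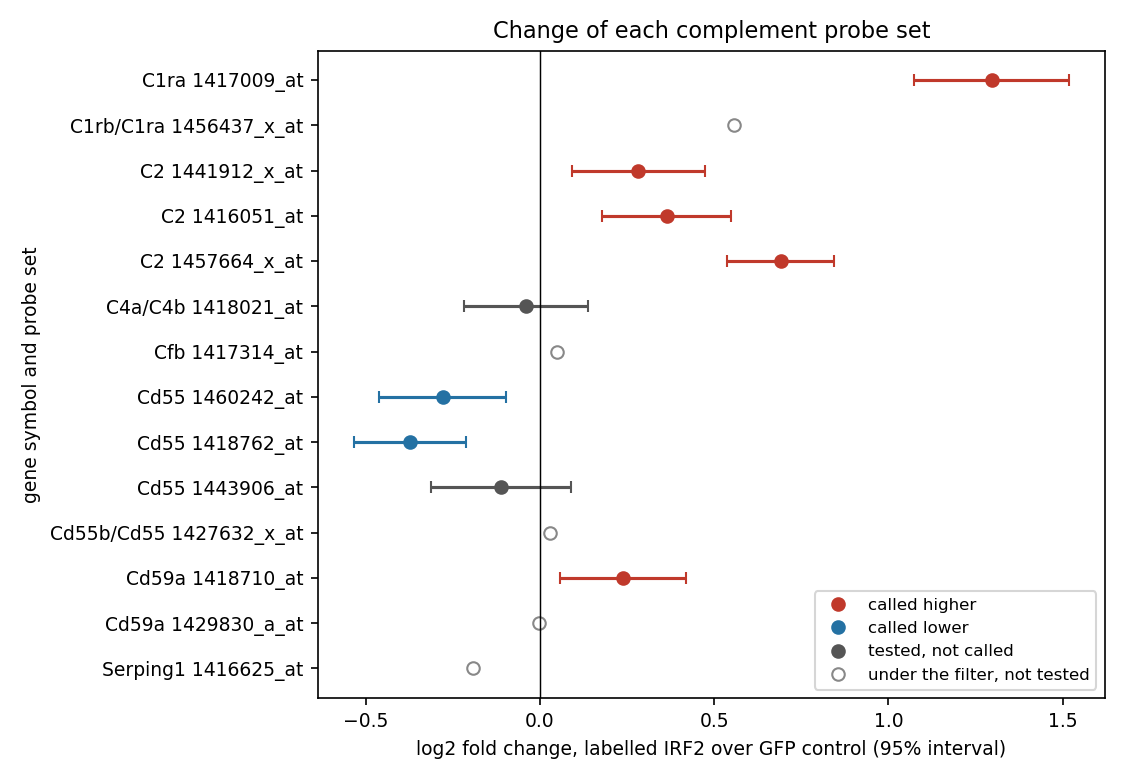
Log2 fold change of each complement probe set, arrays labelled IRF2 over GFP control arrays, with the 95% interval from limma for the 9 probe sets tested; open circles are the 5 below the filter, shown without an interval. C1ra (1.30) and all 3 probe sets of C2 (0.28 to 0.69) lie to the right of 0, and both brighter probe sets of Cd55 (-0.28 and -0.37) to the left.

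Cd55, or decay-accelerating factor, encodes a lipid-anchored membrane protein that speeds the decay of C3 and C5 convertases. Its probe set 1418762_at read 31.6, 34.1 and 36.7 on the arrays labelled IRF2, against 43.6, 46.0 and 43.0 on the GFP control arrays. All 3 arrays labelled IRF2 were lower, and the log2 fold change was -0.37 (SE 0.07, limma adjusted p = 0.00172). The probe set 1460242_at read 35.7, 38.5 and 35.6 on the arrays labelled IRF2, against 39.7, 44.1 and 49.7 on the GFP control arrays. It fell by 0.28 (SE 0.08, adjusted p = 0.0235), with no overlap. That call was lost without the intensity trend (adjusted p = 0.0573), without the replicate 1 (0.0759) or replicate 3 (0.0719) array labelled IRF2 and without the replicate 3 GFP control array (0.119).

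The third probe set of Cd55 alone, 1443906_at, was dim, at 11.98, 13.5 and 11.2 on the arrays labelled IRF2, against 12.8, 13.1 and 13.6 on the GFP control arrays. The groups overlapped, and its change of -0.11 (SE 0.09, limma adjusted p = 0.438; 95% interval -0.31 to 0.09) was not called. Whether it differs from the changes of the other two could not be decided with this number of arrays. The probe set shared with Cd55b, 1427632_x_at, read 3.15 to 4.33 on the arrays labelled IRF2 and 3.45 to 3.78 on the GFP control arrays, at background. Averaged over its 3 own probe sets, Cd55 fell by 0.25 (limma adjusted p = 0.00657).

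Cd59a encodes the lipid-anchored protein that stops C9 from completing the membrane attack complex. Its probe set 1418710_at read 19.9, 20.1 and 20.1 on the arrays labelled IRF2, against 16.4, 18.5 and 16.1 on the GFP control arrays. The groups did not overlap and the change was 0.24 (SE 0.08, limma adjusted p = 0.0477), a call at the edge of the threshold: over 14 alternatives its adjusted p ran from 0.0232 to 0.361 and the call was lost in 9. Leaving out any array but the replicate 2 GFP control array ended it (adjusted p from 0.0938 to 0.158), and with 16 added before the log the change was 0.13. Its other probe set, 1429830_a_at, read 8.87, 6.54 and 7.26 on the arrays labelled IRF2, against 7.24, 8.62 and 6.76 on the GFP control arrays, overlapping and below the filter.

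Serping1 encodes C1 inhibitor, the serpin that shuts down C1r, C1s and the MASPs and also the contact system protease kallikrein. It read 5.80, 5.94 and 5.90 on the arrays labelled IRF2, against 5.89, 7.59 and 6.76 on the GFP control arrays. The arrays labelled IRF2 were all inside the tryptophan range and 2 of the GFP control arrays just above it, so Serping1 was at or near background on all 6 arrays. Without the filter its adjusted p was 0.254 (limma).

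Promoters were examined because IRF2 is known to bind the interferon-stimulated response element. RefSeq promoter sequences (GRCm38.p6), 250 bases before to 50 bases after the start, were found for 4 of the 8 genes. Those of the 3 measured genes among them, C1ra, Cd55 and Cd59a, are shown because their probe sets moved in different directions. Capitals mark matches to AANNGAAA, the core that IRF proteins share, or to TTCNNNGAA, a STAT-type (GAS) motif, searched on both strands; no matches overlapped in these windows.
C1ra, chr6:124512371-124512670, plus strand: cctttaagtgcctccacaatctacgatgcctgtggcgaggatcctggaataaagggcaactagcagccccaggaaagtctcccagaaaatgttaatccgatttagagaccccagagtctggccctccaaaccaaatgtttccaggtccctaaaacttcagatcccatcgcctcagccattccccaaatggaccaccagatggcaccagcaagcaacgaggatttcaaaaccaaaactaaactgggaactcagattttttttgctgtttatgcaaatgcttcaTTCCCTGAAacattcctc
Cd55, chr1:130462695-130462994, minus strand: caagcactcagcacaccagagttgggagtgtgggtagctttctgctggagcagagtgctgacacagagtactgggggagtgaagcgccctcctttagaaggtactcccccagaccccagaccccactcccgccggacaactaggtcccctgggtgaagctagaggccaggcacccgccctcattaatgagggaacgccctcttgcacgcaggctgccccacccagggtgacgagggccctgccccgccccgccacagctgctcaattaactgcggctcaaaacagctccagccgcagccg
Cd59a, chr2:104095551-104095850, plus strand: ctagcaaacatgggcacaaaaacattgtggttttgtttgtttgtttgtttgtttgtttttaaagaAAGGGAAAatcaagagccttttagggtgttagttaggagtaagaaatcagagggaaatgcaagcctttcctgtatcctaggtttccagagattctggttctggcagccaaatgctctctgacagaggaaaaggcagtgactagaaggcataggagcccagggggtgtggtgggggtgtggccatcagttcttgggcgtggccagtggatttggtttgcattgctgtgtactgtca

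The C1ra window held 1 match to the GAS motif, at positions 33 to 41 after the start, and none to the IRF motif. The Cd59a window held 1 match to the IRF motif, at positions -185 to -178 from the start, and the Cd55 window held neither. Of 32851 promoter windows of this length, 23.9% held the IRF motif and 8.30% the GAS motif. The Cd55 window was the richest in G and C of the 3, at 63.3%, against 47.0% for C1ra and 45.7% for Cd59a. These are matches of letters and say nothing of binding in these cells.

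Other genes of the cascade were counted from lists chosen by role, each gene by its brightest probe set. Of 49 genes, 40 had a probe set of their own and 15 were above the filter; 6 rose and 1 fell. Over all 12795 genes counted this way, 15.6% were called higher and 18.6% lower. The median change of the 15 was 0.07, against -0.0007 over all genes. The 25 below the filter included both mannose-binding lectin genes, C5 (Hc), all 3 C8 chains and C9.

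Among the initiators, Masp1, a protease gene of the lectin arm, rose by 0.31 (SE 0.04, limma adjusted p = 4.52e-05), at 327 ± 15.9 on the arrays labelled IRF2 and 263 ± 6.17 on the GFP control arrays (mean ± SD, n = 3 each). Its other probe sets above the filter rose by 0.34 and 0.37. Masp2 and the ficolin genes Fcna and Fcnb were tested and not called, with changes of 0.03, 0.02 and -0.14. Cfp encodes properdin, which stabilises the alternative convertase; it was called higher by 0.17 (SE 0.06, adjusted p = 0.0411), a call lost without the filter (0.0548) and without each array but the replicate 1 GFP control array (0.0721 to 0.144), and the average of both its probe sets gave 0.05 (0.548). C6, the only attack complex gene above the filter, differed by 0.11 (SE 0.10, adjusted p = 0.493).

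Among the receptors, C1qbp, whose protein binds C1q heads but sits mainly in mitochondria, fell by 0.17 (SE 0.02, limma adjusted p = 1.47e-05), at 3649 ± 40.01 on the arrays labelled IRF2 and 4110 ± 66.7 on the GFP control arrays (mean ± SD, n = 3 each). C3ar1, the receptor gene for the fragment C3a, was higher by 0.29 (SE 0.10, adjusted p = 0.0393) in the only 1 of its 3 probe sets above the filter. Its call was lost without the replicate 2 array labelled IRF2 (0.180), without the replicate 1 (0.127) or replicate 2 (0.0804) GFP control array, without the filter (0.062) and without the intensity trend (0.0673), and with 16 added before the log its change was 0.16.

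Among the regulators, Cr1l, which encodes Crry, a rodent membrane inhibitor of C3 convertases with a role like that of Cd55, rose by 0.19 (SE 0.03, limma adjusted p = 4.20e-04). It read 332 ± 3.15 on the arrays labelled IRF2 and 291 ± 3.78 on the GFP control arrays (mean ± SD, n = 3 each), the opposite direction to Cd55. Cd46, a further membrane cofactor gene, differed by -0.02 (SE 0.10, adjusted p = 0.896). Of the soluble regulators, clusterin (Clu), which blocks assembly of the attack complex, rose by 0.18 (SE 0.04, adjusted p = 0.00233), and its 3 other probe sets rose by 0.14 to 0.19. Cpn1, a carboxypeptidase subunit gene that trims C3a and C5a, rose by 0.36 (SE 0.08, adjusted p = 0.00391), but its 2 probe sets averaged 0.20 (adjusted p = 0.114).

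**Figure D3:**
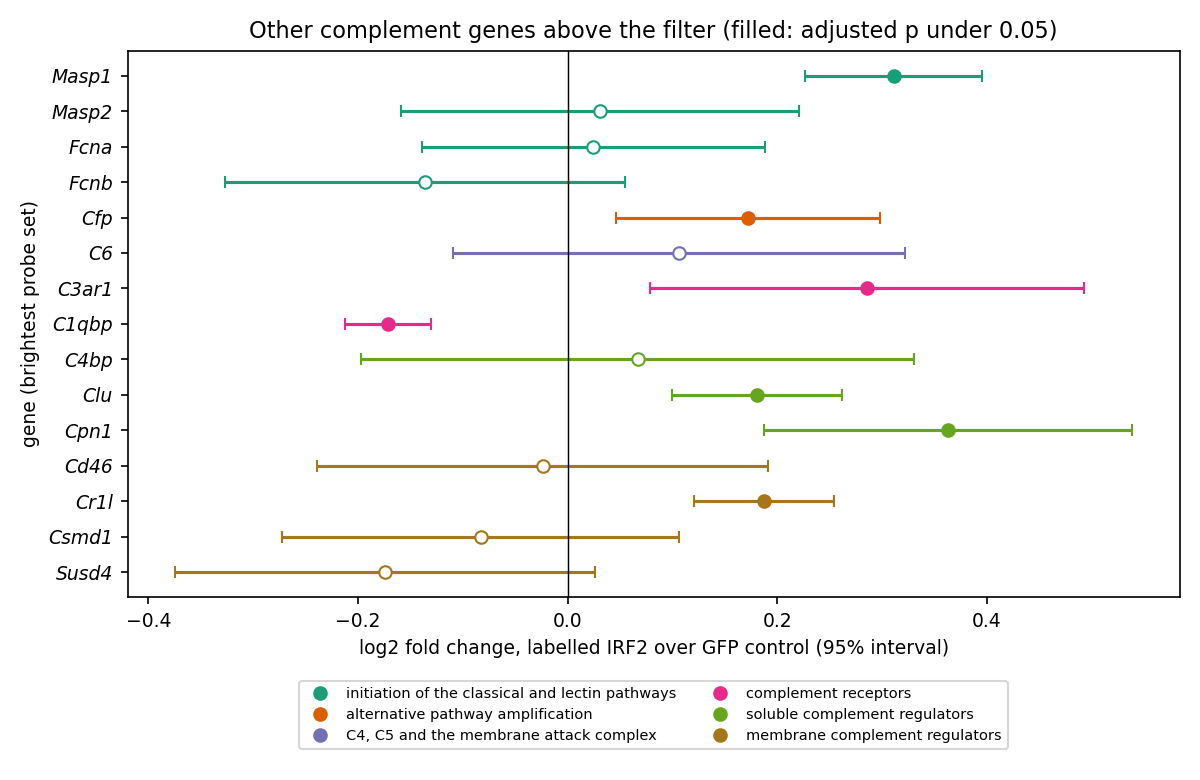
Log2 fold change with its 95% interval (limma) of the 15 other complement genes above the filter, coloured by role, arrays labelled IRF2 over GFP control arrays; filled points have an adjusted p under 0.05. The 6 filled points to the right are Masp1, Cfp, C3ar1, Clu, Cpn1 and Cr1l, and the only one to the left is C1qbp.

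Lists of genes next to complement were counted in the same way, and are to be read against the 15.6% of all genes called higher and 18.6% called lower. Of 18 acute-phase genes, 7 were above the filter, and 1 of these was called: Socs3, a cytokine signalling inhibitor, fell by 0.23 (SE 0.05, limma adjusted p = 0.00403). Of 12 genes of the contact system and plasminogen activation, which C1 inhibitor partly controls, 5 were above the filter. Plat, tissue plasminogen activator, rose by 0.46 (SE 0.04, adjusted p = 1.33e-06), or by 0.28 averaged over its probe sets (adjusted p = 0.0054). Plaur, the urokinase receptor gene, fell by 0.09 (SE 0.03, adjusted p = 0.0287), a call lost under quantile normalization (0.092), without the intensity trend (0.153), without the replicate 2 (0.0863) or replicate 3 (0.106) array labelled IRF2 and without the replicate 3 GFP control array (0.137).

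Markers of cells that could bring complement RNA into a sample were also read. Of 4 hepatocyte markers with a probe set, 3 were above the filter and none was called; their sum ran from 86.4 to 91.9 on the arrays labelled IRF2 and from 84.2 to 92.2 on the GFP control arrays. Of 5 endothelial markers, 2 were above the filter and none was called. Of 7 fibroblast markers, 5 were above the filter: Pdgfra rose by 0.70 (SE 0.11, limma adjusted p = 2.34e-04) and Pdgfrb fell by 0.40 (SE 0.08, adjusted p = 0.00234). Averaged over their probe sets, Pdgfra rose by 0.36 (adjusted p = 0.00275) and Pdgfrb differed by -0.16 (adjusted p = 0.064). The summed level of the fibroblast list was 144 to 154 on the arrays labelled IRF2 and 137 to 149 on the GFP control arrays. Means of Col1a1, Col1a2, Col3a1, Dcn and Lum were 8.35, 11.5, 18.3, 16.7 and 6.15 on the arrays labelled IRF2. On the GFP control arrays they were 7.04, 11.3, 16.1, 17.5 and 7.08. The part of the fibroblast markers in the complement changes was not tested. Of 8 intestinal epithelial markers, 6 were above the filter, of which 2 rose and 3 fell. Those called higher were the keratin genes Krt8, by 0.50 (limma adjusted p = 1.04e-09), and Krt18, by 0.08 (adjusted p = 0.00415). Those called lower all encode adhesion proteins: Cdh1 by 0.75 (adjusted p = 1.13e-08), Cdh17 by 0.57 (adjusted p = 4.02e-08) and Epcam by 0.81 (adjusted p = 1.03e-04). In bulk RNA, fewer cells of a type and less RNA per cell cannot be told apart.

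C2, Cfb and C4b lie close together on chromosome 17 in the class III part of the mouse MHC. Of the 5 protein-coding genes on each side of C4b, all 10 were above the filter and none was called. Beside C2, Zbtb12 and Ehmt2, the next genes on the side away from Cfb, were higher by 0.17 (SE 0.06, limma adjusted p = 0.0418) and 0.14 (SE 0.03, adjusted p = 0.00144). The heat shock gene Hspa1b, 5 genes from C2, fell by 0.56 (SE 0.03, adjusted p = 4.02e-08). The call of Zbtb12 was lost without the filter (0.0586), without the intensity trend (0.0696), and without each array labelled IRF2 but replicate 1 and each GFP control array but replicate 1 (0.0922 to 0.147).

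**Figure D4:**
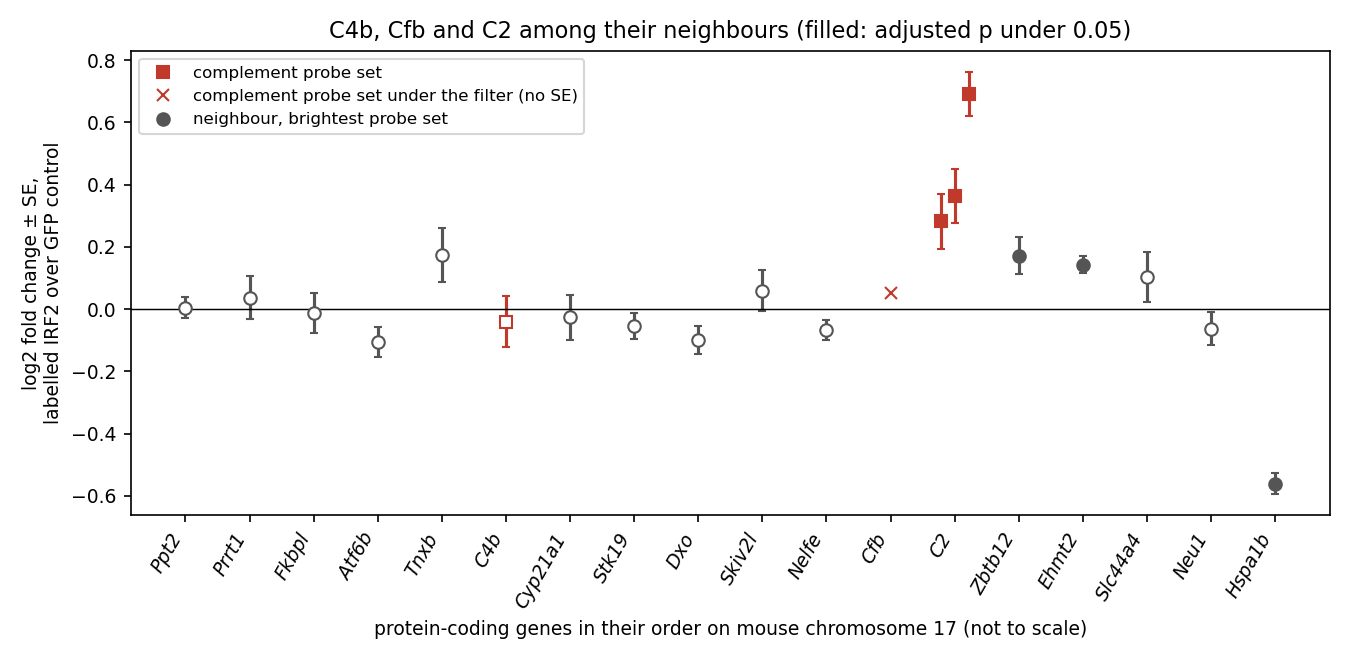
Log2 fold change with its SE (limma), arrays labelled IRF2 over GFP control arrays, for C4b, Cfb, C2 and their protein-coding neighbours in chromosome order (not to scale); filled symbols have an adjusted p under 0.05 and the cross marks Cfb, which was below the filter. The 3 probe sets of C2 (0.28 to 0.69) are above all of these neighbours, the highest of which is Tnxb at 0.17.

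Counted once each and without the 8 genes themselves, 65 genes lay within 5 places of a complement gene, 43 of them above the filter, with 7 called higher and 4 lower, beside 15.6% and 18.6% of all genes. Of these 11 calls, 5 were lost with an array left out. None of the 4 tested neighbours of C1ra and none of the 5 of Cd59a was called. Beside Serping1, Ube2l6, the gene of the enzyme that conjugates ISG15, rose by 0.87 (SE 0.10, limma adjusted p = 1.64e-05). Like C1ra it passed the filter only through the arrays labelled IRF2, at a mean of 18.1, against 9.96 on the GFP control arrays, and with 16 added before the log its change was 0.40. The mitochondrial import gene Timm10 fell by 0.18 (SE 0.03, adjusted p = 0.00126). Around Cd55, AA986860 fell by 0.35 (SE 0.06, adjusted p = 9.37e-04), or by 0.16 averaged over its probe sets (adjusted p = 0.032). Beside C3, which had no named probe set, Gpr108 rose by 0.15 (SE 0.03, adjusted p = 0.00393). With Ehmt2 and Hspa1b, these are the 6 neighbours whose call held with each array left out in turn.

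The genes with array profiles most like those of the complement genes with the largest changes were found by the Euclidean distance between centred log2 values over the 6 arrays. For C1ra these were Asah2, Gstm1 and Ncam1, at distances of 0.174, 0.269 and 0.303, with changes of 1.29 to 1.32. For probe set 1457664_x_at of C2 they were Il17rd, Chrna1 and Ttll1, at 0.0957, 0.0967 and 0.101. With 2 groups of 3 arrays this likeness is mostly a like difference between the groups.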

How the data were processed

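The authors deposited linear intensities, 1 for each probe set on each array. The submitters' processing notes list MAS5 without a role; how probes were summarised and arrays scaled is not stated in the labels. No pair of arrays was identical over all probe sets. Exactly equal values on at least 2 arrays were found in 4124 probe sets, and on all arrays of a group in 40. The arrays already shared a scale, so none was applied. Detection calls were not used here. Intensities were taken to log2, the 64 control probe sets were left out, and probe sets with a 6-array mean above the 40th percentile went into 1 linear model each with limma 3.58.1 under R 4.3.3 (eBayes with an intensity trend, group as the only term, 4 residual degrees of freedom). The number of arrays limits the precision.

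Symbols came from GEO's platform annotation, updated by gene number through RefSeq (GRCm38.p6; 34741 of 34945 probe sets with 1 symbol matched); 932 probe sets had several symbols and 9160 none. Named genes are every probe set of the 8 genes and Irf2, called genes of the complement lists and the 3 most alike genes. Of the called neighbours, Zbtb12 and those whose call held with each array left out are named. Up to 3 called genes of other lists are named, and all called intestinal epithelial markers. Other genes are named to describe a list and were chosen after their values were seen. The genes and lists were chosen with earlier results of these data known.

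Alternatives were no filter, a 60th percentile filter, 16 added before the log, quantile normalization, no trend, 1 probe set per gene, the mean of a gene's probe sets, a replicate block, leaving out each array, and a filter on the higher group mean.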

Additional observations from a re-analysis of the deposited data

How the results depend on the processing

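C1ra, the C2 probe sets 1457664_x_at and 1416051_at and the Cd55 probe set 1418762_at kept their direction and call under every alternative that tested them; C1ra ran from 0.54 to 1.38 (log2), with an adjusted p of at most 3.43e-04. The count of complement probe sets called higher, 5, was 2 under the 60th percentile filter, which by construction leaves out C1ra, 1457664_x_at and Cd59a, 3 with 1 probe set per gene and 2 with the mean of probe sets, where fewer features are counted. Leaving out 1 array gave 3 to 5: it was 3 without the replicate 1 or 3 array labelled IRF2 and without the replicate 1 or 3 GFP control array. The count called lower, 2, was 1 without the intensity trend, with 1 probe set per gene and with the mean of probe sets, and 1 to 2 with an array left out, 1 without the replicate 1 or 3 array labelled IRF2 or the replicate 3 GFP control array. Over all probe sets, 3513 higher and 4246 lower became 2111 and 2531 with 1 probe set per gene and 1796 and 2148 with the mean of probe sets, and ran from 2844 to 3205 and from 3292 to 4049 with an array left out. The 6 other complement genes called higher were 3 in the mean of probe sets, where C3ar1 was not tested, and 4 to 5 with an array left out. The 1 called lower was 1 to 2. The change of the C4a and C4b probe set ran from -0.082 to 0.026 with an array left out, turning sign without the replicate 2 GFP control array. Without that array Susd4, a membrane regulator gene, was also called lower (-0.27, limma adjusted p = 0.0449).

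Whether the replicate numbers pair the arrays is not stated in the labels. Same-numbered arrays correlated at 0.06, -0.06 and 0.0031 in their deviations from the group means, and differently numbered arrays at -0.10 to 0.097. With deviations taken within groups of 3 arrays, this cannot settle whether they were paired. With the replicate block, 4 complement probe sets were called higher and 2 lower (3529 and 4244 over all), and the calls of Cd59a (adjusted p = 0.0607), Cfp (0.0547) and Zbtb12 (0.0502) were lost. The filter on the higher group mean, chosen after seeing the data, gave 5 and 2. Levels near the tryptophan controls limit what can be said of Serping1, of C1ra on the GFP control arrays and of the paralog probe sets.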
